A study of Mus musculus with 16 samples.

Results

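Lungs of pregnant mice given titanium dioxide (TiO2) particles were compared with lungs of non-pregnant mice given only the vehicle, and the combined difference was set against the 2 single ones. The comparison took the 4 samples whose labels name pregnancy and TiO2 insufflation and the 4 whose labels name no pregnancy and phosphate-buffered saline (PBS), 8 of the 16 samples of the series. The other groups, 4 pregnant PBS and 4 non-pregnant TiO2 samples, supplied the single changes. All mice were female BALB/c, an inbred laboratory strain. Their ages were not given in the labels used here. Pregnant animals were at gestation day 14. TiO2 was a respirable dust baked against endotoxin, given once into the nose under light halothane anaesthesia at 50 ug per mouse, and PBS animals received the liquid alone. Total RNA of the lung was taken 19 hours later and hybridised to 1-colour Affymetrix mouse arrays, 1 array per sample. The series text asks whether pregnancy alters the slight inflammation that dust regarded as inert normally causes. Whether each sample came from 1 mouse is not stated, so p-values measure the spread between these samples.

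As background, TiO2 is poorly soluble and of low toxicity, and in the airway it is taken up mainly by macrophages, which can call in neutrophils through cytokines. Pregnancy by itself raises the number of circulating neutrophils and activates blood leukocytes and platelets. Airway surfaces are also defended by secreted proteins, among them lipocalin and trefoil peptides, and by immunoglobulin A, which the polymeric immunoglobulin receptor carries across the epithelium. In a simple model of 2 independent influences on a transcript, their fold changes multiply, so that their log2 changes add.

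Deposited signals were quantile-normalised, and all levels below are log2(intensity + 16). A difference of levels understates the fold change of weak signals, so that folds that multiply need not add up exactly there. Of the genes measured, 12369 passed the filter on dim signals. The combined difference, pregnant TiO2 minus non-pregnant PBS, is called the joint change. Pregnancy alone is pregnant PBS minus non-pregnant PBS, and TiO2 alone is non-pregnant TiO2 minus non-pregnant PBS. The departure from the sum is the joint change minus both single changes, and 0 means that the 2 log2 changes added up. One limma fit over all 16 arrays gave every value, with Benjamini-Hochberg adjusted p-values under 0.05 taken as calls.

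The lung markers Sftpc, Sftpb, Scgb1a1, Ager and Cldn5 were bright on every array, and the female transcript Xist lay between 10.93 and 11.99. Arrays of 1 group correlated with r between 0.939 and 0.991, and arrays of different groups between 0.936 and 0.988. Some arrays stood apart in transcripts of neighbouring tissue. Prss16, a protease of thymic epithelium, was at 9.72 and 8.98 on replicates 4 and 3 of the non-pregnant PBS group and no higher than 6.32 on the others. Pregnant TiO2 replicate 2 was low in the squamous keratin Krt13 (5.21) and in the skeletal muscle actin Acta1 (6.56). The same array was low in Glycam1 (4.15), a product of lymph node venules. Non-pregnant TiO2 replicates 1 and 4 were low as well in lymph node venule and fat genes. Their means over the 2 measured venule genes were 5.28 and 5.16, against 5.06 on pregnant TiO2 replicate 2. Over 12 measured fat genes they were 7.99 and 7.66, against 8.01 there. Both TiO2 arrays enter TiO2 alone and every departure, and no setting left out both. For non-pregnant PBS replicate 2 the labels conflict: its source name says pregnant and its gestation field says non-pregnant, and it was kept in the non-pregnant group. Below, the 3 arrays that stood apart, or were of unlike tissue content, are non-pregnant PBS replicates 3 and 4 and pregnant TiO2 replicate 2. The calls that ended without the 2 high in Prss16, or without all 3, are named after the results. Counts of calls under every setting stand in the closing section.

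**Figure D1:**
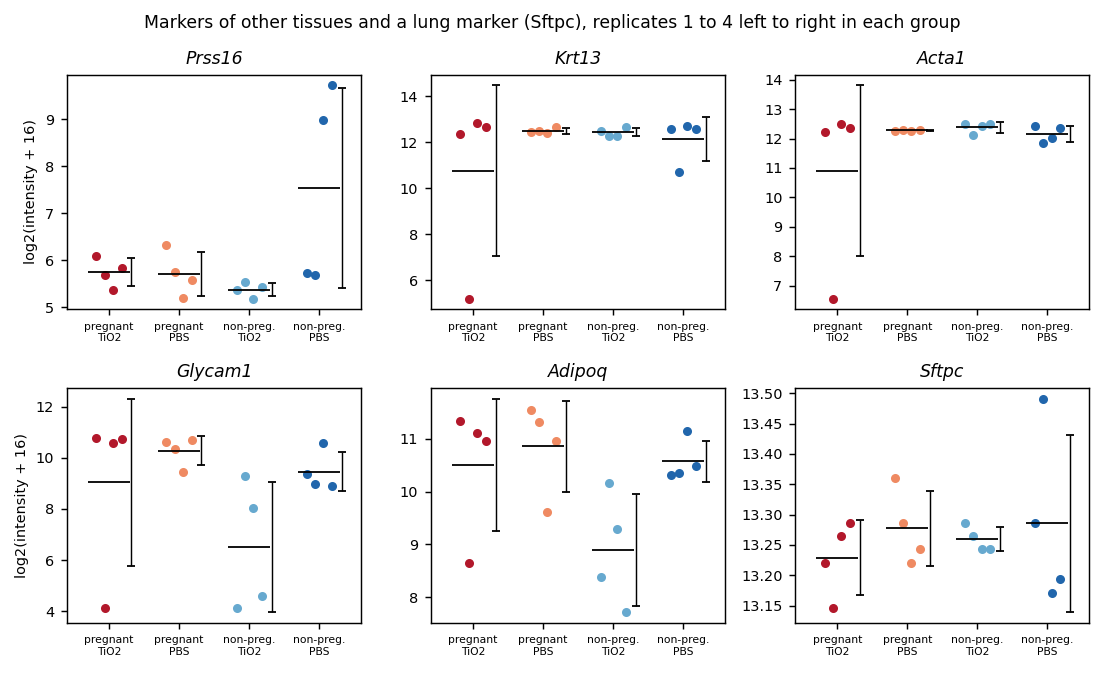
Levels of 5 transcripts of other tissues and of the lung surfactant gene Sftpc on all 16 arrays, as log2(intensity + 16) on the vertical axes, with the group mean (line) and SD (bar). Prss16 is high on non-pregnant PBS replicates 3 and 4, Krt13 and Acta1 are low on pregnant TiO2 replicate 2, and Sftpc lies between 13.15 and 13.49 everywhere.

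The joint change was called for 59 of 12369 genes (0.477%), of which 48 were higher (0.388%) and 11 lower (0.0889%) in pregnant TiO2 lungs. Genes with an unadjusted p under 0.05 numbered 1396 (11.3%). In 58 of the 59 the pregnant TiO2 arrays did not overlap the non-pregnant PBS arrays, against 4.98% of all genes, and the exception was Plek. That is 47 of the 48 higher genes, against 3.16% of all genes, and all 11 lower genes, against 1.82%. The 59 were picked for a difference between these same arrays, so the lack of overlap largely follows from the picking. Higher were immunoglobulin A and its receptor, secreted defence proteins, neutrophil and platelet transcripts, interleukin 1 and several immediate-early genes. The counts of called rises on gene lists below stand against the 0.388% of all genes called higher. The same fit called 129 genes (1.04%) for pregnancy alone and 0 for TiO2 alone, where the lowest adjusted p was 0.146 and 1223 genes (9.89%) had an unadjusted p under 0.05. These contrasts share the non-pregnant PBS arrays with the joint change, so their values are only set beside it.

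Immunoglobulin A stood first. Igha, the constant region of its heavy chain, read 11.81, 11.91, 11.83 and 11.92 in pregnant TiO2 lungs, against 10.16, 9.93, 10.54 and 10.47 in non-pregnant PBS lungs. Pregnant PBS lungs had 11.05, 10.96, 12.05 and 12.11, and non-pregnant TiO2 lungs 10.47, 10.15, 10.03 and 10.17. All 8 arrays from pregnant mice lay above all 8 from non-pregnant mice, and the 4 pregnant TiO2 values were far closer together (SD 0.05) than the pregnant PBS ones (SD 0.62). The joint change was 3.02-fold (log2 1.59 ± 0.23 SE, adjusted p = 0.00712). A variable segment of the kappa light chain, ranked behind Igha and Cd177, rose 2.70-fold (adjusted p = 0.0312). Such segments resemble each other in sequence, so that its signal may include relatives. In whole lung, more cells of a type and more RNA per cell cannot be told apart.

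Pigr, the receptor that carries immunoglobulin A through epithelium, read 10.31, 9.99, 9.83 and 10.08 in pregnant TiO2 lungs, against 9.16, 9.11, 8.90 and 8.79 in non-pregnant PBS lungs. The groups were separated by more than their own ranges, and the joint change was 2.09-fold (log2 1.06 ± 0.14 SE, adjusted p = 0.00712). Unlike Igha, it had similar single changes: 0.37 for pregnancy alone and 0.43 for TiO2 alone. Jchain, which joins immunoglobulin A into polymers, averaged 0.99 higher without passing (adjusted p = 0.0574). Of 20 genes on the list of immunoglobulin A, plasma cell and B cell genes, 17 were measured, 2 rose and none fell, and the median joint change was 0.21, against 0.00 over all genes. The B cell surface genes Cd79a and Ms4a1 had joint changes of 0.17 and 0.18, neither called.

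Agr2 and Tff2, 2 of 16 measured genes of club and secretory airway cells, were also called higher. Agr2, a disulfide isomerase of mucus-producing cells, read 6.26, 5.74, 6.55 and 6.54 in pregnant TiO2 lungs, against 5.61, 5.24, 5.48 and 4.95 in non-pregnant PBS lungs. The groups lay close without overlapping, and the change of 1.94-fold (adjusted p = 0.0442) kept its call in 4 of the 16 fits that each left out 1 array. Tff2, a trefoil peptide that protects mucosa, read 6.90, 6.82, 7.05 and 6.89 in pregnant TiO2 lungs, against 5.84, 5.88, 6.28 and 5.92 in non-pregnant PBS lungs. It rose 1.91-fold (adjusted p = 0.0256), and its TiO2 change alone (0.70) was above its pregnancy change alone (0.43). The list holds 18 genes, none fell, and the median joint change of those measured was 0.44. Muc5b, a gel-forming mucin, averaged 0.84 higher without a call (adjusted p = 0.0764). The club cell secretoglobin Scgb1a1 lay at the top of the intensity range on all 16 arrays (13.44 to 13.55, with tied values), so a difference between groups could not be read from it.

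**Figure D2:**
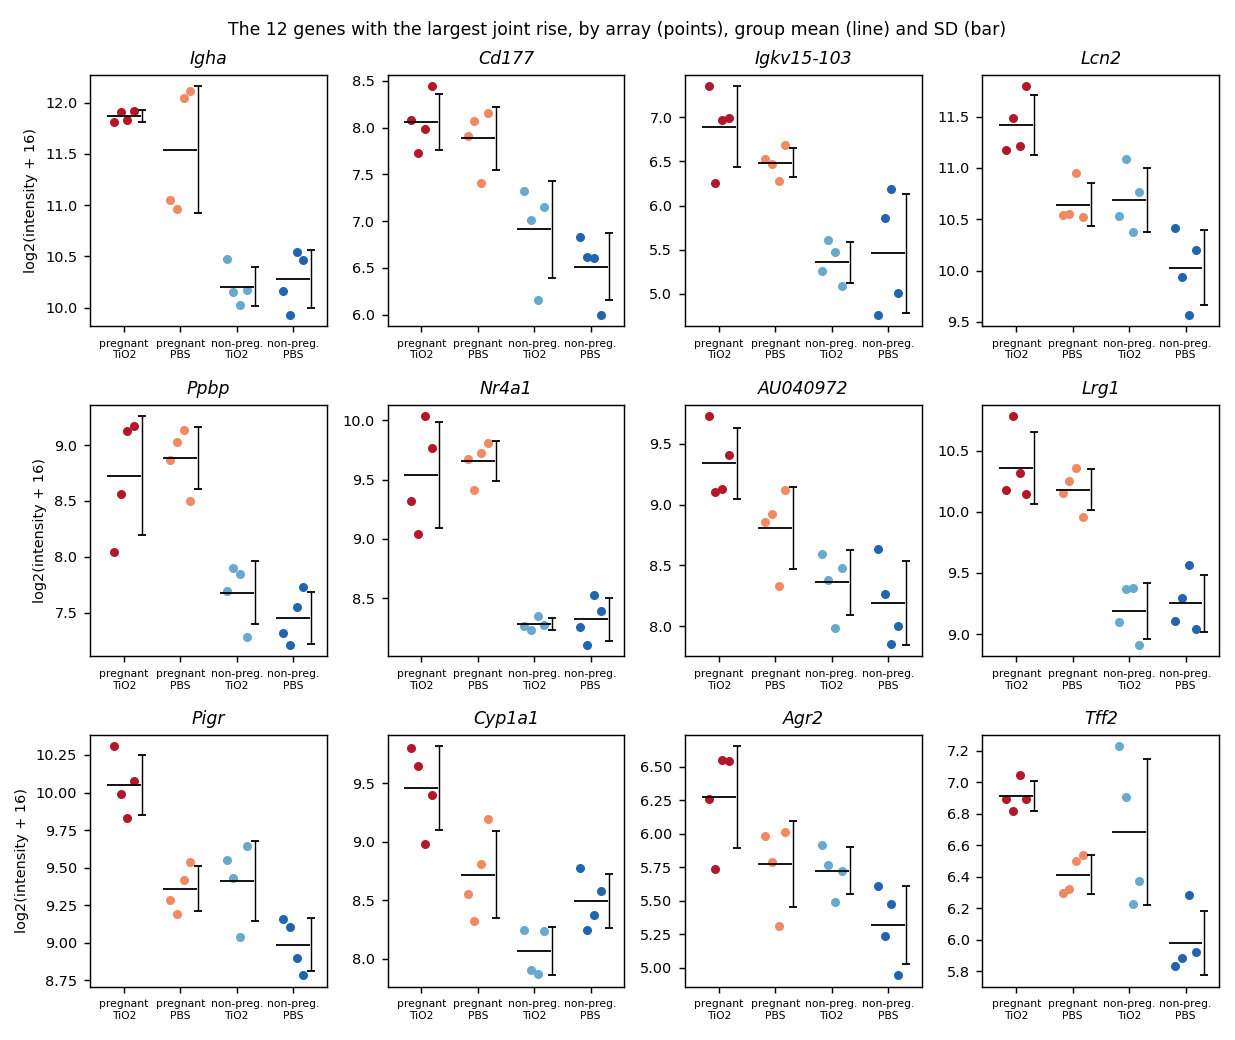
Levels on every array of the 12 genes with the largest called rise, as log2(intensity + 16) on vertical axes that do not start at 0, in pregnant TiO2, pregnant PBS, non-pregnant TiO2 and non-pregnant PBS lungs (points, 4 arrays each; line, mean; bar, SD). For Igha and Nr4a1 both pregnant groups lie above both non-pregnant groups, whereas for Lcn2 and Pigr both single-exposure groups lie between the pregnant TiO2 and non-pregnant PBS means.

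Lcn2, a lipocalin that binds bacterial siderophores and is made by neutrophils and epithelium, read 11.17, 11.48, 11.22 and 11.80 in pregnant TiO2 lungs, against 10.42, 9.93, 9.57 and 10.20 in non-pregnant PBS lungs. Pregnant PBS lungs had 10.54, 10.56, 10.95 and 10.53, and non-pregnant TiO2 lungs 10.53, 11.09, 10.38 and 10.76. Every pregnant TiO2 array was above every other array of the series. The joint change was 2.62-fold (log2 1.39 ± 0.19 SE, adjusted p = 0.00712), beside 0.61 for pregnancy alone and 0.66 for TiO2 alone, neither called. Lrg1, a leucine-rich glycoprotein of neutrophils and the acute phase, rose 2.15-fold (adjusted p = 0.00712), with 0.93 for pregnancy alone and -0.06 for TiO2 alone. Serpina3n, an acute-phase protease inhibitor, rose 1.89-fold (adjusted p = 0.0433), and Cfb, complement factor B, 1.76-fold (adjusted p = 0.0186). Serpina3n kept its call in 2 of the 16 fits without 1 array and Cfb in 13. On the list of acute-phase and secreted defence genes 14 of 22 were measured, 3 rose (Lcn2, Pigr and Serpina3n) and none fell, and the median joint change was 0.67. Saa3, serum amyloid A of tissue macrophages and epithelium, had a change as large as the leaders (1.44 ± 0.32 SE) but overlapping groups and an adjusted p of 0.0631.

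Cd177, a neutrophil surface glycoprotein, read 8.08, 7.73, 7.98 and 8.44 in pregnant TiO2 lungs, against 6.84, 6.62, 6.60 and 6.00 in non-pregnant PBS lungs. No value overlapped, and the change was 2.92-fold (log2 1.54 ± 0.25 SE, adjusted p = 0.0111), with 1.37 for pregnancy alone and 0.40 for TiO2 alone. Of 30 listed neutrophil genes 23 were measured and 5 rose: Cd177, Lcn2, the pattern receptor Clec4e, the chitinase-like Chil3 and the formyl peptide receptor Fpr2. None fell, and the median joint change was 0.34. Clec4e and Fpr2 each kept the call in 4 of the 16 fits without 1 array. Pregnancy alone gave 13 calls on the list, all higher, where 0.808% of all genes were called higher. Its median was 0.74, and that of TiO2 alone was -0.10. The calprotectin subunit S100a8 read 10.92, 11.28, 11.47 and 11.29 in pregnant TiO2 lungs, against 10.70, 11.19, 11.19 and 10.54 in non-pregnant PBS lungs. Pregnant PBS lungs had 12.65, 12.55, 12.24 and 12.02. The pregnant TiO2 arrays overlapped the non-pregnant PBS arrays and lay below every pregnant PBS array, with a joint change of 0.33 (adjusted p = 0.578). Its partner S100a9 differed by 0.58 (adjusted p = 0.289), beside 1.64 for pregnancy alone, which was called (adjusted p = 0.00143).

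Platelet transcripts formed another group. Ppbp, the platelet chemokine precursor, read 8.04, 8.56, 9.13 and 9.17 in pregnant TiO2 lungs, against 7.31, 7.21, 7.55 and 7.73 in non-pregnant PBS lungs. Replicates 3 and 4 of the pregnant TiO2 group were the highest, the groups did not overlap, and the change was 2.42-fold (log2 1.28 ± 0.22 SE, adjusted p = 0.0186). Also higher were Clec1b, the podoplanin receptor (1.81-fold, adjusted p = 0.0101), and the platelet tubulin Tubb1 (1.80-fold, adjusted p = 0.0105). Gp5, a subunit of the von Willebrand factor receptor, rose 1.62-fold and Plek, a kinase substrate of platelets and leukocytes, 1.52-fold. Gp5 kept its call in 4 of the 16 fits without 1 array and Plek in 2. Of 20 listed platelet genes 17 were measured, these 5 rose and none fell, and the median joint change of 0.58 stood beside 0.74 for pregnancy alone and 0.00 for TiO2 alone. Platelet factor 4, Pf4, averaged 0.44 higher without a call.

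Cytokines and macrophage genes came next. Il1b, the inflammatory cytokine interleukin 1 beta, read 8.40, 8.61, 8.65 and 8.66 in pregnant TiO2 lungs, against 7.75, 7.83, 8.22 and 7.47 in non-pregnant PBS lungs. Pregnant PBS lungs were higher still, at 9.34, 9.39, 9.16 and 8.91, and non-pregnant TiO2 lungs had 7.30, 7.27, 7.50 and 7.62. The joint change was 1.69-fold (log2 0.76 ± 0.14 SE, adjusted p = 0.0311). Il1a, interleukin 1 alpha, rose 1.60-fold (adjusted p = 0.0144) with nearly equal single changes, 0.48 for pregnancy alone and 0.40 for TiO2 alone. Ccl9, a chemokine for myeloid cells, rose 1.80-fold (adjusted p = 0.00712). Of 36 listed cytokines and chemokines 20 were measured, these 3 rose and none fell, and the neutrophil chemokine Cxcl1 differed by 0.29 (adjusted p = 0.707).

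Among macrophage genes the protease Ctsk read 8.70, 9.00, 8.51 and 8.82 in pregnant TiO2 lungs, against 7.97, 7.97, 7.85 and 8.32 in non-pregnant PBS lungs. The groups did not overlap (1.66-fold, adjusted p = 0.0105), and its single changes were 0.29 for pregnancy and 0.45 for TiO2. The lysosomal glycoprotein Cd68 rose 1.52-fold (adjusted p = 0.0213) and Chil3 1.65-fold (adjusted p = 0.0246). These 3 were the calls among 18 of 20 listed monocyte and macrophage genes measured, whose median joint change was 0.24. Mmp12, the macrophage elastase, rose 1.61-fold (adjusted p = 0.0144), with the larger single change after TiO2 (0.28 against 0.14). The scavenger receptor Marco varied from 4.16 to 6.55 among non-pregnant PBS arrays, and its joint change of 1.07 was not called (adjusted p = 0.27). Retnla, a secreted product of alternatively activated macrophages, averaged 0.81 higher without a call (adjusted p = 0.107).

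Nr4a1, an orphan nuclear receptor and immediate-early gene, read 9.32, 9.04, 10.04 and 9.77 in pregnant TiO2 lungs, against 8.26, 8.11, 8.53 and 8.39 in non-pregnant PBS lungs. Pregnant PBS lungs had 9.68, 9.42, 9.72 and 9.81, and non-pregnant TiO2 lungs 8.27, 8.23, 8.35 and 8.27. All pregnant arrays lay above all non-pregnant ones, with a joint change of 2.33-fold (log2 1.22 ± 0.17 SE, adjusted p = 0.00712). The matricellular gene Ccn1 rose 1.90-fold (adjusted p = 0.0186), the AP-1 subunit Junb 1.52-fold (adjusted p = 0.0186) and the stress-response gene Ier3 1.49-fold (adjusted p = 0.0328). On the immediate-early list 21 of 22 were measured, these 4 rose and none fell, and the median joint change was 0.29. Fos, another AP-1 subunit, averaged 0.45 higher without a call.

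Cyp1a1, a monooxygenase induced through the aryl hydrocarbon receptor, read 9.80, 9.65, 8.98 and 9.40 in pregnant TiO2 lungs, against 8.78, 8.24, 8.37 and 8.58 in non-pregnant PBS lungs. Pregnant PBS lungs had 8.55, 8.32, 8.81 and 9.19, and non-pregnant TiO2 lungs 8.25, 7.90, 7.87 and 8.24. The pregnant TiO2 arrays lay above the non-pregnant PBS and non-pregnant TiO2 arrays and overlapped 1 pregnant PBS array. The joint change was 1.95-fold (log2 0.97 ± 0.19 SE, adjusted p = 0.0433), and it kept the call in 4 of the 16 fits that left out 1 array. The single changes were 0.22 for pregnancy and -0.43 for TiO2, neither called. The predicted sum of -0.20 was therefore on the other side of 0 from the joint change, and the departure was the largest among the 59 genes.

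Upstream DNA is shown for 3 called genes that differ in how their single changes combined: Nr4a1, with a pregnancy change and almost no TiO2 change, Lcn2, with about equal single changes, and Cyp1a1, with the largest departure. Each line is the 250 bases before the RefSeq gene start on mouse build GRCm38.p6, 5′ to 3′ on the gene's strand, at chr15:101266596-101266845 (plus), chr2:32387740-32387989 (minus) and chr9:57697363-57697612 (plus). Capitals mark TGACG, the core of a cAMP response element, in Nr4a1, the C/EBP pattern TTNNGNAA in Lcn2, and the dioxin response core GCGTG in Cyp1a1. Both strands were searched, so a capitalised stretch may be the reverse complement of those letters.
Nr4a1: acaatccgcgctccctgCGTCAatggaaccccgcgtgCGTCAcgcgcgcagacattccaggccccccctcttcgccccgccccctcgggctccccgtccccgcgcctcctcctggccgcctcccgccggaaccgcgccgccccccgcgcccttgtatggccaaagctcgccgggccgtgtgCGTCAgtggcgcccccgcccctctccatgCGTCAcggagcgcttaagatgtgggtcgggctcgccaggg
Lcn2: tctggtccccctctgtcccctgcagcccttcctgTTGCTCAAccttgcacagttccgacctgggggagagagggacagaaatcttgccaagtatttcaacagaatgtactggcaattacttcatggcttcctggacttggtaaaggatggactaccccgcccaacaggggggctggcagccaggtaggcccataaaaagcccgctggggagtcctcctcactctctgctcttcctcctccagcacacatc
Cyp1a1: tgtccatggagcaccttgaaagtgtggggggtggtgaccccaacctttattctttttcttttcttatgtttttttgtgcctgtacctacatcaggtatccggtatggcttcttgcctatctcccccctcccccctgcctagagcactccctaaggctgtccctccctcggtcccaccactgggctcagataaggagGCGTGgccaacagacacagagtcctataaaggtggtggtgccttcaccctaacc
Nr4a1 held 4 TGACG matches, all on the minus strand, and Cyp1a1 and Lcn2 held 1 match each of the pattern shown. The Nr4a1 window also held 2 GCGTG matches, 1 of which overlaps one of them. Among the 48 genes called higher, 39 had a window in the table. Of these windows 20 (51.3%) held the C/EBP pattern, against 28.5% of 9963 measured genes' windows. TGACG was in 25.6% against 26.5%, and GCGTG in 28.2% against 44.6%. A match says only that these letters are present.

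The remaining called rises were AU040972, whose function is not known here (2.22-fold, adjusted p = 0.0186), and 18 genes outside the naming rule and not yet named, listed after their values were seen. Wfdc21 encodes a secreted whey acidic protein and rose 1.61-fold, and clusterin, Clu, an extracellular chaperone, 1.48-fold. Ch25h, cholesterol 25-hydroxylase, rose 1.63-fold, and Cyp7b1, which hydroxylates the oxysterols it makes, 1.43-fold. Gpnmb, a transmembrane glycoprotein of macrophages, rose 1.46-fold, and Gch1, the first enzyme of tetrahydrobiopterin synthesis, 1.47-fold. The neurotrophic factor Gdnf rose 1.71-fold, the interferon-induced Ifitm1 1.69-fold, and the inhibitory signalling protein Smad6 1.37-fold. The RNA-binding protein Arid5a rose 1.61-fold, and Dnaaf4, needed to assemble ciliary dynein, was higher by 0.58 on the log2 scale. The other rises were those of Tlcd4, Trnp1, 2610028H24Rik, Vill, Cdhr4, Glipr1 and Nsmce2, between 1.30-fold and 1.54-fold. Of the 16 fits without 1 array, Trnp1 kept its call in 0, Gdnf and Cdhr4 in 1 each, and Smad6 and Nsmce2 in 2 each. Clu, Cyp7b1 and Vill kept it in 3 each, Wfdc21 in 4, Arid5a in 5 and Glipr1 in 7. The other rises of this paragraph kept it in 13 or more.

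All 11 falls were smaller than the leading rises. Sncaip, which encodes a synuclein-binding protein, read 5.25, 5.28, 5.64 and 5.60 in pregnant TiO2 lungs, against 6.27, 5.99, 6.13 and 6.15 in non-pregnant PBS lungs, and fell by 0.69 on the log2 scale (± 0.14 SE, adjusted p = 0.0433). N4bp2, a NEDD4-binding protein, read 7.50, 7.54, 7.61 and 7.70 in pregnant TiO2 lungs, against 7.95, 8.05, 8.33 and 8.28 in non-pregnant PBS lungs, and fell by 0.57 (adjusted p = 0.0105). Cntn4, a neuronal adhesion molecule, read 5.71, 5.77, 5.76 and 5.51 in pregnant TiO2 lungs, against 6.08, 6.46, 6.29 and 6.14 in non-pregnant PBS lungs, and fell by 0.55 (adjusted p = 0.0174). None of these groups overlapped. Dnajc6, which uncoats clathrin vesicles, fell by 0.51, as did the transcription factor Ubp1. The adaptor Pid1 and the phosphoglucomutase-related Pgm5 each fell by 0.49. The Polycomb subunit Cbx2 fell by 0.44, the DNA polymerase subunit Pola1 by 0.41, the ubiquitin ligase subunit Rmnd5a by 0.37 and non-muscle myosin Myh10 by 0.35. Rmnd5a is also on the list of thymocyte genes. Without the 2 arrays high in Prss16, 4 of the 11 falls were not called: Rmnd5a (-0.31, adjusted p = 0.101), Sncaip (-0.69, adjusted p = 0.0781), Pola1 (-0.33, adjusted p = 0.0713) and Dnajc6 (-0.44, adjusted p = 0.0506). Of the 16 fits that left out 1 array, Rmnd5a kept its call in 1 and Sncaip, Cbx2 and Ubp1 in 3 each. The other falls kept it in 11 or more. Without the 3 arrays that stood apart, N4bp2 (-0.40, adjusted p = 0.0669) and Myh10 (-0.40, adjusted p = 0.0514) were not called either.

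The departure from the sum answers whether these changes were additive. It was called for 0 of 12369 genes (0%) by limma, with 0.232 as the lowest adjusted p, and 1352 genes (10.9%) had an unadjusted p under 0.05. With 4 arrays per group its estimate is uncorrelated with that of the joint change, so the 59 genes were not picked for it. Over the 59, the median joint change of 0.68 stood beside a median sum of 0.66, made of 0.48 for pregnancy alone and 0.07 for TiO2 alone. The median departure was -0.01, within a range of -0.45 to 1.17, and its sign was that of the joint change in 28 and opposite in 31, where the signs were equal in 55.4% of all genes. An unadjusted p under 0.05 was found in 5 of the 59 (8.47%), a share near the 10.9% of all genes. The 95% interval of the departure extended a median of 0.35 to either side of its estimate. In 49 of the 59 it lay wholly within plus or minus the joint change, and in the other 10 it reached a departure as large as the joint change. Over all genes it lay within in 129 of 12369. The 59 were picked for a joint change large against the same estimate of spread, so the count of 49 does not measure additivity. In simulated data with many planted departures, those of 1.5-fold and 2-fold were recovered in 36% and 70% of genes. There 154 genes were called, which loosens the adjustment. With 0 called here these shares do not carry over, and even departures above 2-fold may be missed.

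**Figure D3:**
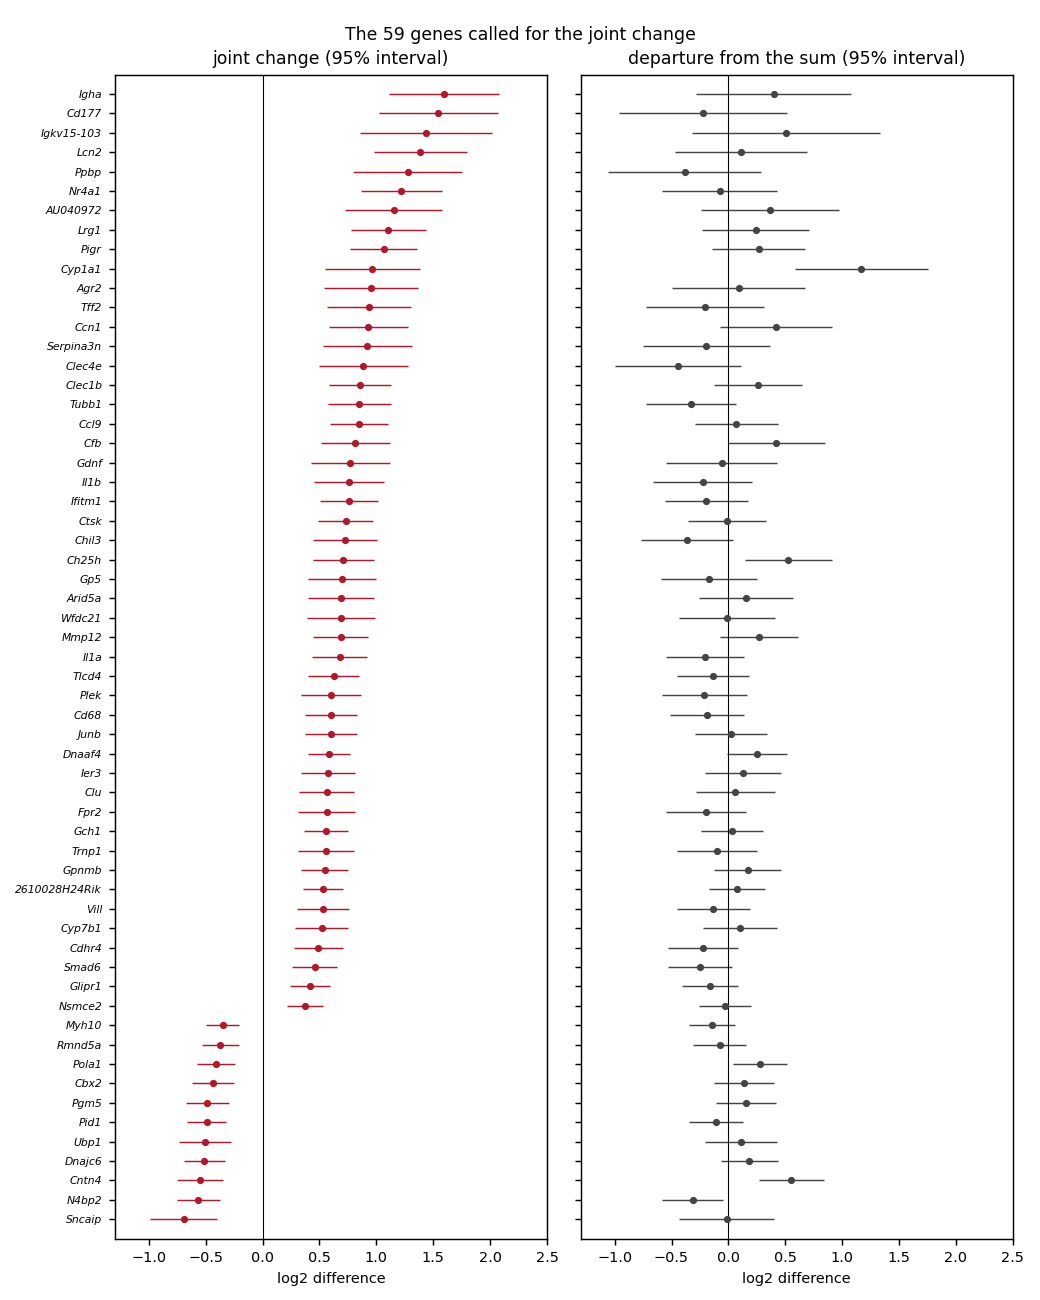
The joint change (left) and the departure from the sum (right) of the 59 called genes, as log2 differences with 95% intervals on the horizontal axes. Rises run up to 1.59 and falls down to -0.69 on the left, while the departures on the right centre near 0 (median -0.01) with Cyp1a1 at 1.17.

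By gene, Lcn2 had a joint change of 1.39 against a sum of 1.27, a departure of 0.11 (95% interval -0.47 to 0.69). Nr4a1 had 1.22 against 1.29, a departure of -0.08 (-0.58 to 0.43). Igha had 1.59 against 1.20, a departure of 0.40 (-0.28 to 1.08), and Pigr 1.06 against 0.80, a departure of 0.27 (-0.15 to 0.68). These intervals all contain 0, and each of them also contains departures of more than 0.5 in size. Ctsk came closest to its sum, with 0.73 against 0.74. The largest departure, that of Cyp1a1, was 1.17 (0.58 to 1.75), and its adjusted p was 0.232. The departure of Cntn4 was 0.55 (0.27 to 0.84, adjusted p = 0.232): it fell by 0.86 with pregnancy alone, a called change, and by 0.55 with both. Ch25h, Pola1 and N4bp2 were the other 3 with an unadjusted p under 0.05, with departures of 0.53, 0.28 and -0.31.

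On the linear intensity scale, where amounts rather than folds would add, no gene was called for a departure either (lowest adjusted p = 0.166). There 8 of the 59 had an unadjusted p under 0.05, against 11.5% of all genes, and 57 of the 59 kept the sign they had on the log2 scale.

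The genes with the smallest p for a departure over the whole array lay outside the 59. The 4 positive ones were Dipk1b (0.78), the kinetochore gene Pmf1 (1.22), the Arf-directed GTPase activator Adap1 (0.84) and the dynactin subunit Dctn6 (1.13). Pmf1 read 8.08, 7.72, 7.42 and 7.80 in pregnant TiO2 lungs, against 8.31, 7.82, 7.89 and 8.03 in non-pregnant PBS lungs. Pregnant PBS lungs had 7.64, 7.09, 6.89 and 7.45, and non-pregnant TiO2 lungs 7.21, 7.37, 7.44 and 7.11. Both single-exposure groups were thus below the non-pregnant PBS arrays, and the pregnant TiO2 group overlapped them. The 4 negative ones were the scaffold gene Cnksr3 (-0.64), the phospholipase Gdpd1 (-0.70), the E2F partner Tfdp2 (-0.81) and the histone acetylation factor Jade2 (-0.71). Joint changes of these 8 genes lay between -0.26 and 0.25, none called, and every departure had an adjusted p of 0.232.

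Departures of the neutrophil genes were mostly below 0. Of the 23 measured, 19 had a departure below 0, against 46.7% of all genes. An unadjusted p under 0.05 was found in 6 of these, where 4.43% of all genes had such a p and a departure below 0. None was called, and the median departure was -0.36, against 0.02 over all genes. Averaged over the list, the levels on the 4 arrays were 7.89 to 8.21 in pregnant TiO2 lungs, 8.31 to 8.69 in pregnant PBS lungs, 7.51 to 7.64 in non-pregnant TiO2 lungs and 7.53 to 7.78 in non-pregnant PBS lungs. Pregnant TiO2 lungs thus lay between pregnant PBS and non-pregnant PBS lungs, overlapping neither. S100a8 had a departure of -0.83 (-1.44 to -0.21, adjusted p = 0.38), S100a9 of -0.66 (adjusted p = 0.443) and the neutrophil collagenase Mmp8, named after its values were seen, of -1.28 (adjusted p = 0.363). In the values as deposited the median departure of the list was -0.61, where that of all genes was itself -0.25. The list's median was -0.41 when the 3 arrays that stood apart were left out, against -0.01 over all genes. Immunoglobulin A, plasma cell and B cell genes went the other way: 16 of 17 departures were above 0, against 53.3% of all genes. Their median departure was 0.43, with a median sum of -0.09 beside a median joint change of 0.21. TiO2 alone had a median of -0.47 on this list. The list mean was lowest on non-pregnant TiO2 replicates 1 and 4 (7.88 and 8.03), the arrays low in venule and fat genes. Among non-pregnant PBS arrays it was highest on replicate 3 (8.85), an array high in Prss16. Whether these arrays account for the positive departures was not tested. Of 22 complement and coagulation genes 17 had a departure above 0, with a median of 0.12. None was called on either list.

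Medians of some other lists followed arrays of unlike tissue content. All 15 measured T cell genes, of 20, had a positive departure (53.3% of all genes did), with a median of 0.94, and all 24 measured cell cycle genes, of 30, with a median of 0.68. The list means of non-pregnant PBS replicates 3 and 4, the arrays high in Prss16, were 8.25 and 8.38 for T cell genes, against 6.36 to 7.21 on the other 14 arrays. For cell cycle genes they were 8.01 and 8.14, against 7.11 to 7.59 elsewhere. Without these 2 arrays the median departures were 0.13 and 0.23, and the median joint changes were 0.45 for T cell genes (-0.41 over all arrays) and 0.34 for cell cycle genes (-0.05 over all arrays). Squamous epithelium (14 of 16 genes measured, median joint change -0.63) and fast skeletal muscle (15 of 16, -0.66) turned to 0.07 and 0.33 when pregnant TiO2 replicate 2 was left out. None of the genes on these 4 lists was called. Of the 59 calls, 42 held without the 2 arrays high in Prss16 and 31 without these and pregnant TiO2 replicate 2.

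**Figure D4:**
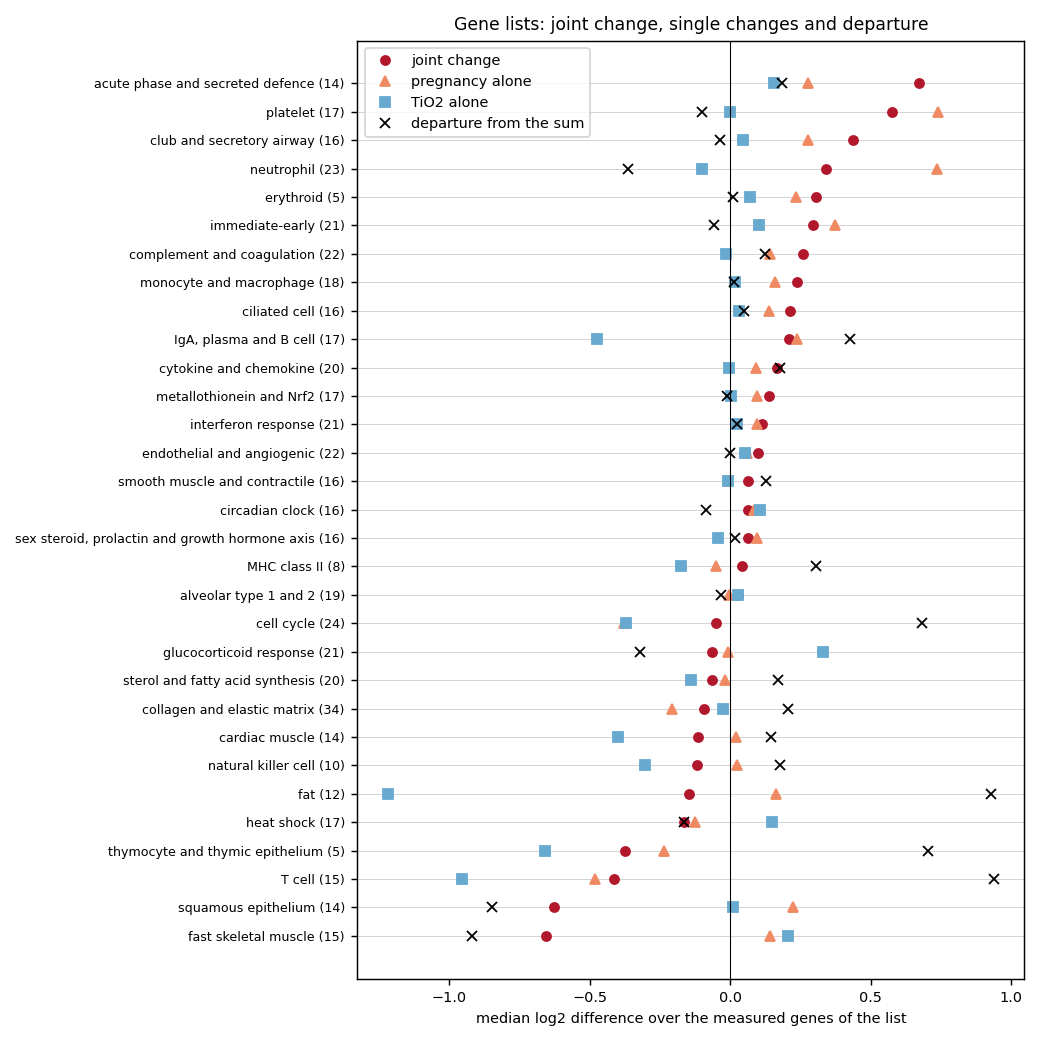
Median log2 difference over the measured genes of 31 lists (horizontal axis; number of genes measured in brackets) for the joint change, pregnancy alone, TiO2 alone and the departure from the sum. Acute-phase, platelet, airway and neutrophil lists have the highest joint medians (0.67, 0.58, 0.44 and 0.34), and T cell, squamous and fast muscle lists the lowest.

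Of the remaining lists, complement and coagulation had 1 rise (Cfb) among 22 of 30 genes measured, collagen and elastic matrix 1 (Mmp12) among 34 of 37, and the glucocorticoid response 1 (Lcn2) among 21 of 22. No gene was called among 17 of 20 metallothionein and Nrf2 targets, where heme oxygenase Hmox1 differed by -0.15 and the metallothioneins Mt1 and Mt2 by 0.50 and 0.57. Nor was one called among the ciliated cell, alveolar, endothelial, interferon response, MHC class II, heat shock, circadian clock, sex steroid, smooth muscle or sterol synthesis genes. Their median joint changes lay between -0.16 and 0.21. The erythroid, natural killer cell, cardiac muscle and fat lists had no call either, with medians of 0.31, -0.12, -0.11 and -0.15, the last 2 of which were above 0 without pregnant TiO2 replicate 2. For fat genes TiO2 alone had a median of -1.22. Of 12 fat genes 11 had a departure above 0, against 53.3% of all genes, with a median of 0.93. The fat list mean was lowest on non-pregnant TiO2 replicates 4 and 1.

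The 2 single changes were also compared with each other, as pregnant PBS minus non-pregnant TiO2 lungs, on arrays that take no part in the joint change. This difference of the single changes was called for 281 of 12369 genes (2.27%). Among the 59 it had the sign of the joint change in 50, against 63.3% of all genes. It was called in that direction in 26, called the other way in 0 and not called in 33. Called were Igha (1.34, adjusted p = 0.00523), Nr4a1 (1.38, adjusted p = 0.000377), Il1b (1.77, adjusted p = 2.54e-05), Clec4e (1.70, adjusted p = 0.00021) and Ppbp (1.20, adjusted p = 0.00898). In these genes pregnancy alone gave more than TiO2 alone. Lcn2 (-0.05), Pigr (-0.06), Tff2 (-0.27), Ctsk (-0.16), Mmp12 (-0.14) and Gch1 (-0.03) were the 6 rises with a difference below 0, none of them called. A higher level in pregnant PBS lungs was called for 1.79% of all genes and for 22 of the 48 rises. The median single changes of these 22 were 0.83 for pregnancy alone and 0.00 for TiO2 alone. For the 26 rises not called they were 0.43 and 0.18, and the median sums (0.85 and 0.62) stood beside median joint changes of 0.77 and 0.68. Across the 59 genes the difference and the joint change correlated with r = 0.641 (rho = 0.604) and across all genes with r = 0.334 (rho = 0.363), as a description across genes, which are not independent replicates.

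**Figure D5:**
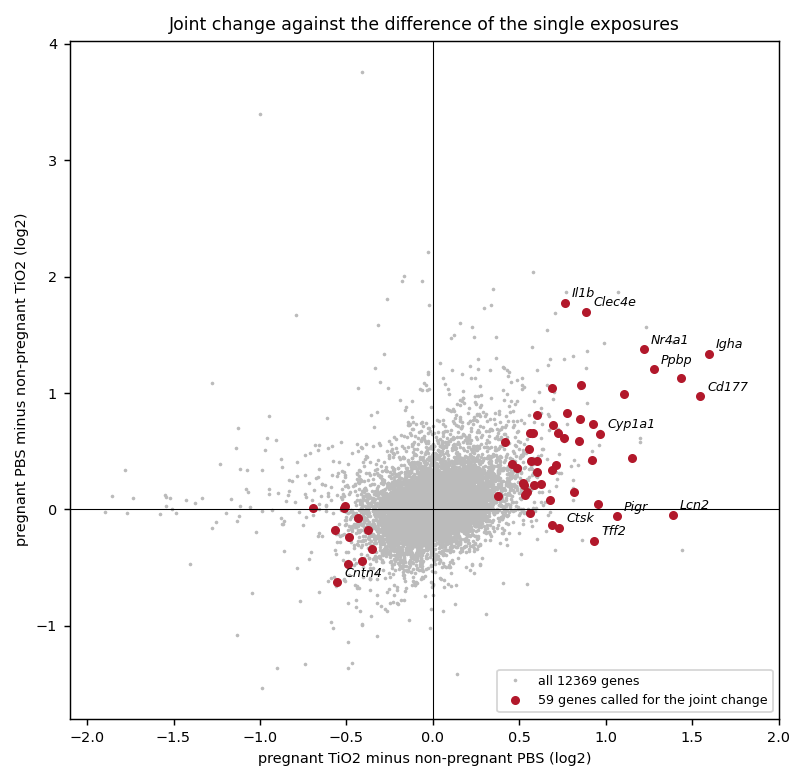
The joint change (horizontal axis, log2) against pregnant PBS minus non-pregnant TiO2 (vertical axis, log2), which shares no array with it, for all 12369 genes (grey) and the 59 called genes (red). Il1b, Clec4e, Igha and Nr4a1 lie high, and Lcn2, Pigr, Ctsk and Tff2 lie near 0 on the vertical axis.

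Calls depended on which arrays were in the fit. Without the 2 arrays high in Prss16 the calls of 17 of the 59 ended, with adjusted p between 0.0506 and 0.139. These were AU040972 (0.0727), Agr2 (0.0879), Cfb (0.0708), Cyp1a1 (0.0806), Fpr2 (0.0983), Il1a (0.0585), Mmp12 (0.0557), Cdhr4, Ch25h, Clu, Smad6, Vill, Wfdc21 and the 4 falls given above. Without these 2 arrays and pregnant TiO2 replicate 2 the calls of 28 ended, with adjusted p between 0.051 and 0.15. They were 16 of the same 17, all but Agr2, and 12 more: 2610028H24Rik, Cd68, Chil3, Clec4e, Cyp7b1, Glipr1, Gpnmb, Junb, Myh10, N4bp2, Nsmce2 and Trnp1. Igha, Lcn2, Lrg1, Nr4a1, Pigr, Ccl9, Clec1b, Tubb1, N4bp2 and Dnaaf4, 10 of the 59, were called in all 16 fits that left out 1 array, and no called gene changed sign in any setting. The count of 59 was 11 without pregnant TiO2 replicate 4, 29 without pregnant TiO2 replicate 3 or non-pregnant PBS replicate 2, and 38 without pregnant PBS replicate 2, non-pregnant TiO2 replicate 1 or non-pregnant PBS replicate 4. With the array of conflicting labels counted as pregnant PBS it was 3 (2610028H24Rik, N4bp2 and Pigr).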

How the data were processed

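Expression was measured in total lung RNA on 16 arrays, 4 per group. The deposited values are linear intensities per probe set, not scaled between arrays (trimmed means 137 to 264). GCOS, MAS5 and RMA are named, per the submitters' processing notes. Which of these made the deposited intensity values is not given in the sources used here. Without its 64 control probe sets the table was quantile-normalised, and log2(value + 16) taken. Probe sets above the array median on at least 4 arrays were kept (23995 of 45101). Names came from the platform annotation, updated against RefSeq: 34945 probe sets had 1 symbol, 932 several and 9160 none. The brightest probe set stood for each gene, and the 19 other probe sets of 13 called genes all had the same direction. Some of these showed little change: the joint change was -0.06 for Ubp1, 0.08 for Glipr1, -0.14 for Rmnd5a and 0.24 for Gch1. In the other genes it ran from 0.37 (Plek) to 1.645 (Igha). A single fit of the 4 group means (limma 3.58.1, lmFit and eBayes, under R 4.3.3) left 12 residual degrees of freedom, and Benjamini-Hochberg adjustment was made within each contrast. Groups came from the source name and gestation labels, and replicate numbers only from sample order. The number of arrays limits the precision.

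Named were up to 12 called genes per direction with the largest joint change and no overlap of groups, 4 per direction with the smallest p for a departure where fewer were called, up to 4 called genes per list, a set of inflammation and metal-response genes and tissue markers. Other list members are examples named after their values were seen. Members and lists were chosen with earlier results of these data known. Promoter sequences are from RefSeq (GRCm38.p6). In data simulated from the measured means and SDs, the joint change of 12369 genes recovered 56%, 96%, 96% and 100% of changes of 1.5, 2, 3 and 4 times, and the departure 36%, 70%, 92% and 100%. The joint-change shares come from a run with 179 calls and the departure shares from a run with 154 calls. Neither carries over to the measured data, where 59 and 0 were called. The simulated arrays also did not differ in tissue content. With 200 genes changed additively, 0 were called for a departure. That run planted no departure, so this outcome says nothing about additivity in the measured data. Other scalings, filters, pseudocounts, array weights, probe set rules, array subsets, a fit of only 2 groups and the linear scale were tried.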

Additional observations from a re-analysis of the deposited data

Results flagged for a closer look

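Among the named genes, 352 gene and group combinations of 4 arrays were examined for 1 array far from the other 3, and 22 in 17 genes were found, where chance gives about 1 in 20. On pregnant TiO2 replicate 2, Krt13 (5.21), Acta1 (6.56), Glycam1 (4.15) and Adipoq (8.65), markers of squamous epithelium, muscle, lymph node venules and fat, were the lowest, and on replicate 1 Clu (11.66) was the highest. In pregnant PBS lungs, Lcn2 (10.95) and Gp5 (7.35) were high and Sncaip (5.60) low on replicate 3, Ccl9 (9.46) was high on replicate 1, Gch1 (7.07) low on replicate 2 and Saa3 (7.53) low on replicate 4. In non-pregnant TiO2 lungs, Chil3 (11.15) was high on replicate 1 and Marco (4.77) on replicate 2, whereas Acta1 (12.12) was low on replicate 2, Ager (13.16) on replicate 3, and Gp5 (6.07) and Scgb1a1 (13.44) on replicate 4. In non-pregnant PBS lungs all 5 were on replicate 2, the array of conflicting labels: Tubb1 (6.67), Gp5 (5.90) and Krt13 (10.71) were low, and 2610028H24Rik (7.40) and Scgb1a1 (13.55) high. The Scgb1a1 values lie near the top of the intensity range and differ little.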

How the results depend on the processing

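The joint change was called for 59 genes. It was called for 12 with the values as deposited, 35 with no filter, 91 with array weights, 180 without the 2 arrays with thymus transcripts (42 of the 59 among them), 158 without the 3 arrays of unlike tissue content (31 among them), 3 with the array of conflicting labels counted as pregnant PBS and 1 (Igha) with only the 2 groups in the fit. Leaving out 1 array gave 11 to 84. The departure from the sum had 0 calls, 1 with no filter (Atp4a), 4 without the 3 arrays (Lysmd1, Sfrp4, Tab3 and Telo2) and 0 to 2 without 1 array, the 2 (Nfatc3 and Plekha8) without non-pregnant PBS replicate 2. Pregnancy alone, with 129 calls, had 38 as deposited, 249 without the 2 arrays, 295 without the 3, 7 with the conflicting array moved and 71 to 219 without 1 array. TiO2 alone, with 0, had 1 with no filter and 0 to 5 without 1 array. For pregnancy alone minus TiO2 alone, with 281 calls, there were 73 as deposited, 727 with array weights, 502 without the 3 arrays, 52 with the conflicting array moved and 143 to 371 without 1 array. In the values as deposited the median of all genes moved to -0.25 for the departure from the sum, 0.16 for pregnancy alone, 0.17 for TiO2 alone and 0.08 for the joint change. The cause of these shifts was not tested. Dim probe sets are limited by the pseudocount. No paired analysis was possible because the labels give no replicate numbers that groups share.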
